A study of Mus musculus and Rattus norvegicus with 24 samples.

Results

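The subject is 7 receptor genes of the tumour necrosis factor (TNF) superfamily in brain tissue after arterial occlusion: Tnfrsf11b, Tnfrsf1a, Tnfrsf1b, Tnfrsf12a, Tnfrsf9, Tnfrsf21 and Fas. They were found by gene symbol in the array annotation of each species. Each of the 7 had 1 transcript cluster, the array's unit for a gene, in the mouse table and 1 in the rat table. They were 7 of 22180 mouse genes and 7 of 18166 rat genes. The 7 were picked with their differences between occluded and sham animals in these same arrays already known. Their values are therefore a description. No p-value is printed for any of them, and the calls and counts on them support nothing further.

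RNA was read on whole-transcript arrays in animals with a permanently occluded middle cerebral artery (pMCAO). In this stroke model a filament is tied in place at the origin of the artery. The animals were adult male C57BL/6 mice aged 8 to 10 weeks, occluded on the right, and adult male Sprague-Dawley rats aged 8 to 12 weeks, occluded on the left. Tissue measuring 3 by 3 mm was cut at 2 h or 6 h from the penumbra, which surrounds the ischaemic core. Sham animals, which had the surgery without the occlusion, gave tissue from the same side. The 8 groups were pMCAO and sham mice at 2 h, pMCAO and sham mice at 6 h, and the same 4 groups of rats, each with 3 animals and 1 array per animal.

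TNF receptors are membrane proteins that bind ligands of the TNF superfamily, which act as trimers. Some, such as TNF receptor 1 and Fas, carry a death domain inside the cell and can start apoptosis or necroptosis. Others recruit TRAF adaptor proteins and activate NF-kB and stress kinases. Osteoprotegerin, the product of Tnfrsf11b, has no membrane anchor: it is a secreted decoy that binds the ligands RANKL and TRAIL and keeps them from their receptors. In brain, microglia and infiltrating leukocytes are known sources of TNF, and neurons, glia and vessel cells carry its receptors.

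Promoter sequences are shown for the 3 genes that passed the threshold in the mouse at 6 h, since Tnfrsf12a and Fas read high together there and Tnfrsf21 read low. They come from RefSeq on build GRCm38.p6 and run from 250 bases before the gene start to 50 bases after it, 5′ to 3′ on the gene's strand. Capitals mark matches on either strand to the AP-1 motif TGANTCA, the NF-kB motif or the GC box GGGCGG. Tnfrsf12a lies at chr17:23677400-23677699 on the minus strand, Fas at chr19:34290409-34290708 on the plus strand and Tnfrsf21 at chr17:43016305-43016604 on the plus strand.
Tnfrsf12a: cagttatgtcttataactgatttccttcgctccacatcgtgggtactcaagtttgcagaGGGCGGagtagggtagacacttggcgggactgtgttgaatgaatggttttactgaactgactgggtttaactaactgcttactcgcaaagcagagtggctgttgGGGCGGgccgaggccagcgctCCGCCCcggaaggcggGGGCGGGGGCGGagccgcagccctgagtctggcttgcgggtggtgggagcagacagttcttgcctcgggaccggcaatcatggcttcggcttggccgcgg
Fas: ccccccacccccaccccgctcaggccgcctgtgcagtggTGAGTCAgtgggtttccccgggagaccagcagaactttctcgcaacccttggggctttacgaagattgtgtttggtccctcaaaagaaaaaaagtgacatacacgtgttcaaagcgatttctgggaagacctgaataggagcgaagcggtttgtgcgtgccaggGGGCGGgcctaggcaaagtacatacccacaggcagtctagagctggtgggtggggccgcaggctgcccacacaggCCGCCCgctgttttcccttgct
Tnfrsf21: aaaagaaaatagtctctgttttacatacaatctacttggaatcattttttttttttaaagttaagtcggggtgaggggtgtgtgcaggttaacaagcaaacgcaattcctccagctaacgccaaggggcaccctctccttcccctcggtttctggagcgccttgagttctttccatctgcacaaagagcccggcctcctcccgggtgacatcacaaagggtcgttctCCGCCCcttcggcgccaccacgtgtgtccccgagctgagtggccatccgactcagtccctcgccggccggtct

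The Tnfrsf12a window held 5 GC boxes, which begin at positions -191, -87, -66, -50 and -44, where 1 is the first transcribed base, and no match to AP-1 or NF-kB. The Fas window held 1 AP-1 match at -211 and GC boxes at -47 and 29. The Tnfrsf21 window held 1 GC box at -23. Of 32817 mouse promoters of 300 bases, 35.6% held a GC box, 7.81% an AP-1 match and 8.46% an NF-kB match. In all, 6 of the 7 genes had an entry, with 7 windows between them, and Tnfrsf11b had none. The second start listed for Tnfrsf9 held AP-1 at -15 and overlapping NF-kB matches at -43 and -42. A match is a run of letters and not a measured binding site.

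Values are deposited log2 expression levels, on which 1 unit is a doubling. Array medians lay at 6.03 to 6.06 (2 h) and 5.92 to 5.96 (6 h) in mouse, and at 6.67 to 6.75 (2 h) and 5.82 to 5.87 (6 h) in rat. Because the times differ in this way, pMCAO was set against sham within a time. The 11 neuronal markers averaged 10.13 to 10.47 in the mouse arrays and 10.77 to 11.54 in the rat arrays, above every array's upper quartile. They cannot tell the penumbra from other parts of the brain. The mean of 8 choroid plexus markers ran from 5.73 to 7.68 over the mouse arrays. The mean of 9 such markers ran from 5.12 to 7.47 over the rat arrays, highest in sham replicate 3 at 2 h. Over all genes, a single array stood apart. The rat pMCAO replicate 2 at 2 h lay at 25.9 on the first principal component of its 6 arrays. The other 2 pMCAO arrays lay at 1.63 and 2.33 and the sham arrays at -13.8 to -3.17. In bulk tissue, fewer cells of a type and less RNA per cell cannot be told apart. With 3 animals against 3, an exact two-sided permutation test cannot go below 0.1, so calls come from a limma model fitted across all genes, with Benjamini-Hochberg adjustment and a threshold of 0.05.

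The 7 genes did not move as a block. At 2 h in the rat, the osteoprotegerin gene Tnfrsf11b read about 2.06-fold higher after pMCAO, and the other 6 genes did not pass the threshold. By 6 h the gene past the threshold in both species was Tnfrsf12a, which encodes Fn14, the receptor for the cytokine TWEAK, at 1.54-fold in mouse and 1.53-fold in rat. The death receptor gene Fas passed in the mouse at 6 h, 1.77-fold higher, and Tnfrsf21, which encodes death receptor 6, passed there in the other direction, at 0.814 of the sham level. The genes of both TNF receptors, Tnfrsf1a and Tnfrsf1b, and of the co-stimulatory receptor 4-1BB, Tnfrsf9, passed in no comparison.

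**Figure D1:**
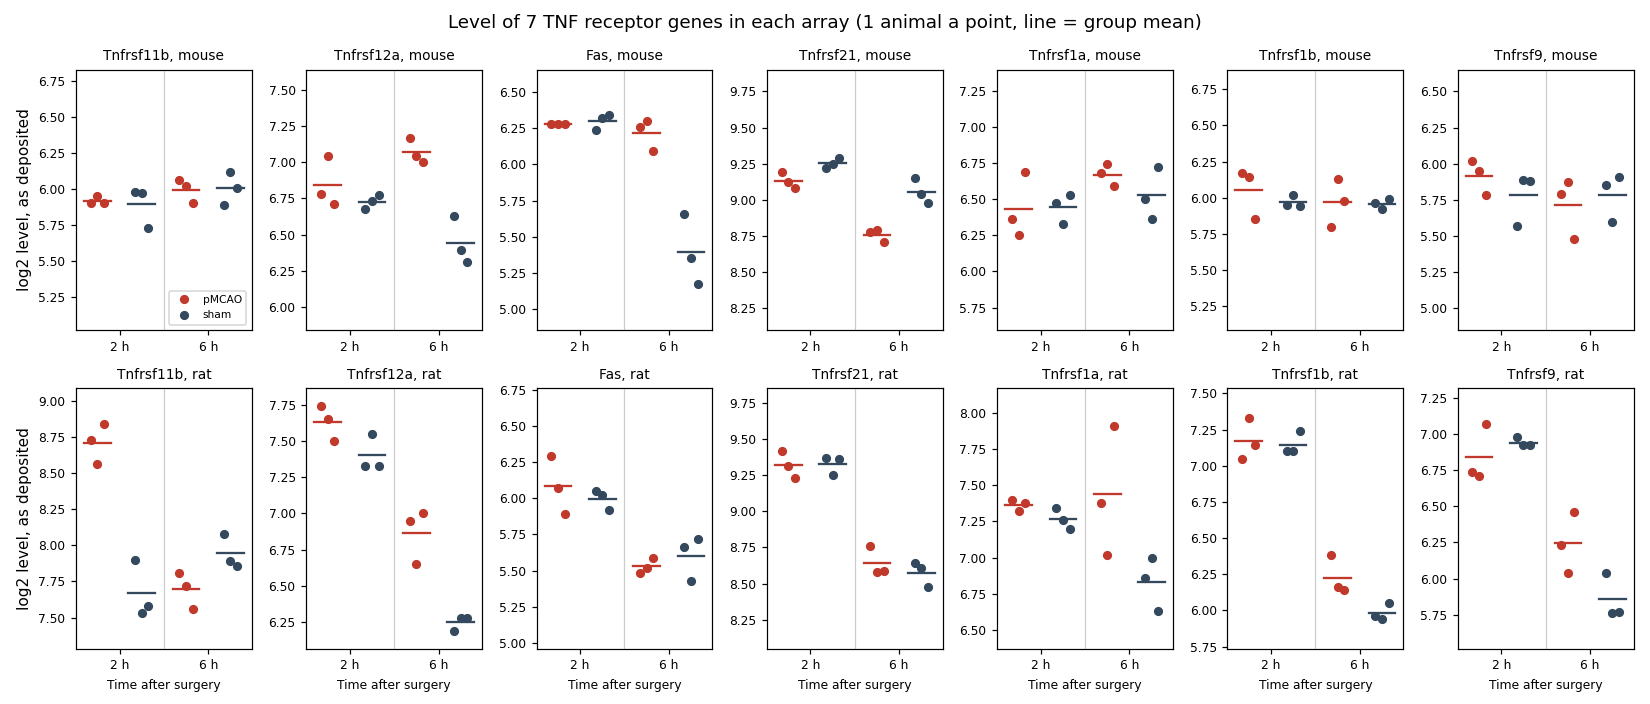
Log2 level as deposited (vertical axis) of the 7 receptor genes in each array at 2 h and 6 h, mouse above and rat below, with pMCAO in red left of sham in blue and a line at each group mean. The 3 rat pMCAO arrays at 2 h sit at 8.56 to 8.84 for Tnfrsf11b, above the sham arrays at 7.53 to 7.90, and in mouse Fas the 3 sham arrays at 6 h sit below all others.

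Tnfrsf11b in the rat read 8.73, 8.56 and 8.84 after pMCAO at 2 h, against 7.90, 7.53 and 7.58 in sham rats. All pMCAO arrays lay above all sham arrays, with a gap of 0.66. The log2 difference was 1.04 ± 0.11 (SE, n = 3 per group), past the threshold. It was 1.11 without pMCAO replicate 2, the array that stood apart, and still past the threshold. It was 1.00 without sham replicate 3, where the call was lost. That sham array had the highest choroid plexus marker mean of the rat arrays, at 7.47. The part of this tissue in the Tnfrsf11b values was not tested.

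At 6 h the same gene lay the other way round. Rat Tnfrsf11b read 7.81, 7.72 and 7.56 after pMCAO, against 8.08, 7.89 and 7.86 in sham rats. Every pMCAO array was below every sham array, but the log2 difference of -0.25 ± 0.11 (SE, n = 3 per group) did not pass the threshold. The difference at 6 h minus that at 2 h was -1.29 ± 0.16 on the log2 scale, which passed. Of the 7 genes, 1 passed in this change over time in the rat and none as higher, while 0.0661% of all rat genes passed as lower and 0.165% as higher. For the mouse, 0 of the 7 passed in the change over time in limma, where 0.0857% of all mouse genes passed as higher and 0.0857% as lower. At an unadjusted limma p under 0.05 there were 2 of the 7, Tnfrsf12a and Fas. The share of all genes at an unadjusted p is not given here, so nothing is read from that count.

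Mouse Tnfrsf11b showed none of this. It read 5.90, 5.95 and 5.90 after pMCAO at 2 h, against 5.98, 5.97 and 5.73 in sham mice, and the groups overlapped. At 6 h it read 6.06, 6.02 and 5.90 after pMCAO and 5.89, 6.12 and 6.01 in sham mice, again with overlap. The log2 differences were 0.02 ± 0.08 at 2 h and -0.01 ± 0.08 at 6 h (SE, n = 3 per group). The mouse difference minus the rat difference at 2 h was -1.02. Relative to the median of each array, Tnfrsf11b group means lay at -0.14 to 0.08 in mouse and at 0.96 to 2.10 in rat. Whether the mouse cluster was too dim to show a change was not tested.

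Osteoprotegerin binds the ligands RANKL (Tnfsf11) and TRAIL (Tnfsf10) and keeps RANKL from its receptor RANK (Tnfrsf11a). Tnfsf11 and Tnfrsf11a are named for that role, after their values were seen. In the rat at 2 h, Tnfrsf11a averaged 7.72 ± 0.21 after pMCAO and 8.19 ± 0.26 in sham (SD, n = 3 each), with all pMCAO arrays below sham. Its log2 difference of -0.47 ± 0.13 (SE) did not pass (limma adjusted p = 0.41). At 6 h rat Tnfrsf11a differed by 0.15 ± 0.13 with overlap (limma adjusted p = 0.566). Mouse Tnfrsf11a differed by 0.05 ± 0.08 at 2 h and by -0.07 ± 0.08 at 6 h, and neither passed. Rat Tnfsf11 differed by -0.02 ± 0.09 at 2 h (adjusted p = 0.979) and by -0.11 ± 0.09 at 6 h (adjusted p = 0.526) in limma. Mouse Tnfsf11 differed by 0.12 ± 0.11 at 2 h and by 0.21 ± 0.11 at 6 h, and neither passed. Tnfsf10, the gene of a ligand that can trigger apoptosis, read 4.55, 4.34 and 4.65 after pMCAO in rats at 6 h, against 5.45, 5.07 and 5.06 in sham. Each pMCAO array was lower than each sham array, and Tnfsf10 fell by 0.68 ± 0.17 (SE) on the log2 scale (limma adjusted p = 0.0343). The call on Tnfsf10 was lost with any 1 of the 6 rat arrays at 6 h left out (limma adjusted p = 0.0517 to 0.127), with log2 differences between -0.75 and -0.55. Rat Tnfsf10 was also among the dimmest 25% of genes. Mouse Tnfsf10 at 6 h differed by 0.11 ± 0.10 (SE, limma adjusted p = 0.556), with overlap.

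Tnfrsf12a, the TWEAK receptor gene, differed from sham by nearly the same amount in both species at 6 h. In mice at 6 h it read 7.17, 7.04 and 7.0 after pMCAO, against 6.63, 6.39 and 6.31 in sham. In rats at 6 h it read 6.95, 6.65 and 7.0 after pMCAO, against 6.19, 6.28 and 6.28 in sham. In both species all pMCAO arrays lay above all sham arrays, each with a gap of 0.37. The log2 differences were 0.63 ± 0.10 in mouse and 0.62 ± 0.10 in rat (SE, n = 3 per group), and both passed.

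At 2 h the groups overlapped for Tnfrsf12a. Mouse arrays read 6.78, 7.04 and 6.71 after pMCAO, against 6.68, 6.73 and 6.77 in sham, a log2 difference of 0.12 ± 0.10 (SE, n = 3 per group). Rat arrays read 7.74, 7.65 and 7.50 after pMCAO and 7.33, 7.55 and 7.33 in sham, a log2 difference of 0.23 ± 0.10 (SE, n = 3 per group). Neither passed. The gene of its ligand TWEAK, Tnfsf12, is not analysed here.

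Fas, the receptor for Fas ligand and a classical starter of apoptosis, passed in 1 of the 4 comparisons, the mouse at 6 h. It read 6.26, 6.30 and 6.09 after pMCAO, against 5.66, 5.35 and 5.17 in sham mice. No arrays overlapped, with a gap of 0.43, and the log2 difference of 0.82 ± 0.11 (SE, n = 3 per group) passed. At 2 h mouse Fas read 6.28 in each of the 3 pMCAO arrays, against 6.24, 6.32 and 6.34 in sham.

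The 6 h pMCAO arrays of the mouse thus read close to both 2 h groups for Fas, and the 6 h sham arrays read lower than all. In the rat, Fas read 6.29, 6.07 and 5.89 after pMCAO at 2 h, against 6.05, 6.02 and 5.92 in sham, and 5.48, 5.52 and 5.59 after pMCAO at 6 h, against 5.66, 5.43 and 5.72 in sham. The rat groups overlapped at both times, with log2 differences of 0.09 ± 0.10 and -0.07 ± 0.10 (SE, n = 3 per group). At 6 h the mouse difference minus the rat difference was 0.89. Rat Fas group means lay at -0.71 to -0.24 relative to the median of each array. Whether the rat cluster was too dim to show a change was not tested. The ligand gene Fasl did not pass in the mouse at 6 h, with a log2 difference of -0.05 ± 0.10 (SE, limma adjusted p = 0.808), and it is named here for its role, after its values were seen.

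Tnfrsf21, the gene of death receptor 6, which is known in neurons as a receptor that can promote axon degeneration, read lower after pMCAO in the mouse. At 6 h the values were 8.78, 8.79 and 8.71 after pMCAO, against 9.15, 9.04 and 8.98 in sham. The arrays did not overlap, and the log2 difference of -0.30 ± 0.06 (SE, n = 3 per group) passed. The call was lost without pMCAO replicate 3 (-0.27) or sham replicate 1 (-0.25).

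At 2 h mouse Tnfrsf21 read 9.19, 9.12 and 9.08 after pMCAO, against 9.22, 9.25 and 9.29 in sham. These arrays did not overlap either, but the log2 difference of -0.12 ± 0.06 (SE, n = 3 per group) did not pass. In rats Tnfrsf21 read 9.42, 9.31 and 9.23 after pMCAO at 2 h, against 9.37, 9.25 and 9.36 in sham, and 8.76, 8.58 and 8.59 after pMCAO at 6 h, against 8.64, 8.61 and 8.48 in sham. Both rat comparisons overlapped, with log2 differences of -0.01 ± 0.08 and 0.07 ± 0.08 (SE, n = 3 per group).

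The genes of the receptors for TNF itself come next. Tnfrsf1a encodes TNF receptor 1, the broadly expressed receptor with a death domain. In rats at 6 h it read 7.38, 7.02 and 7.91 after pMCAO, against 6.86, 7.0 and 6.63 in sham. The pMCAO arrays were spread widely and cleared the sham arrays by 0.02, and they overlapped once each array was centred on its median. The log2 difference of 0.61 ± 0.17 (1.52-fold, SE, n = 3 per group) did not pass. It was 0.81 and passed without pMCAO replicate 2, and was 0.37 without pMCAO replicate 3, the array at 7.91.

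In rats at 2 h Tnfrsf1a read 7.40, 7.32 and 7.38 after pMCAO and 7.34, 7.26 and 7.20 in sham, which overlapped by 0.02. In mice it read 6.36, 6.25 and 6.69 after pMCAO at 2 h, against 6.47, 6.33 and 6.53 in sham, and 6.68, 6.74 and 6.59 after pMCAO at 6 h, against 6.50, 6.36 and 6.72 in sham. The log2 differences in mice were -0.01 ± 0.12 and 0.14 ± 0.12 (SE, n = 3 per group), with overlap at both times.

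Tnfrsf1b encodes TNF receptor 2, which lacks a death domain and is known mainly on immune, glial and vessel cells. In rats at 6 h it read 6.38, 6.16 and 6.14 after pMCAO, against 5.96, 5.94 and 6.05 in sham. All pMCAO arrays were above all sham arrays, by 0.09, but the log2 difference of 0.24 ± 0.09 (1.18-fold, SE, n = 3 per group) did not pass. In rats at 2 h the values were 7.05, 7.33 and 7.14 after pMCAO and 7.10, 7.10 and 7.24 in sham, with overlap.

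In mice Tnfrsf1b read 6.17, 6.14 and 5.85 after pMCAO at 2 h and 5.95, 6.02 and 5.94 in sham. At 6 h it read 5.80, 6.13 and 5.98 after pMCAO and 5.96, 5.92 and 5.99 in sham. The mouse groups overlapped at both times, and the pMCAO arrays were more spread than the sham arrays, at SDs of 0.18 and 0.17 against 0.04 and 0.04.

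Tnfrsf9, the gene of 4-1BB, a receptor best known for co-stimulating activated T cells, came closest to a difference in the rat at 6 h. It read 6.23, 6.04 and 6.46 after pMCAO, against 6.04, 5.76 and 5.77 in sham, so that the lowest pMCAO array equalled the highest sham array. The log2 difference of 0.39 ± 0.12 (1.31-fold, SE, n = 3 per group) did not pass. It was 0.49 and passed without pMCAO replicate 2.

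In rats at 2 h Tnfrsf9 read 6.74, 6.71 and 7.07 after pMCAO and 6.98, 6.92 and 6.92 in sham. In mice it read 6.02, 5.95 and 5.78 after pMCAO at 2 h, against 5.57, 5.89 and 5.88 in sham, and 5.79, 5.87 and 5.48 after pMCAO at 6 h, against 5.85, 5.60 and 5.91 in sham. All 3 of these comparisons overlapped, and their log2 differences lay between -0.10 and 0.14.

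**Figure D2:**
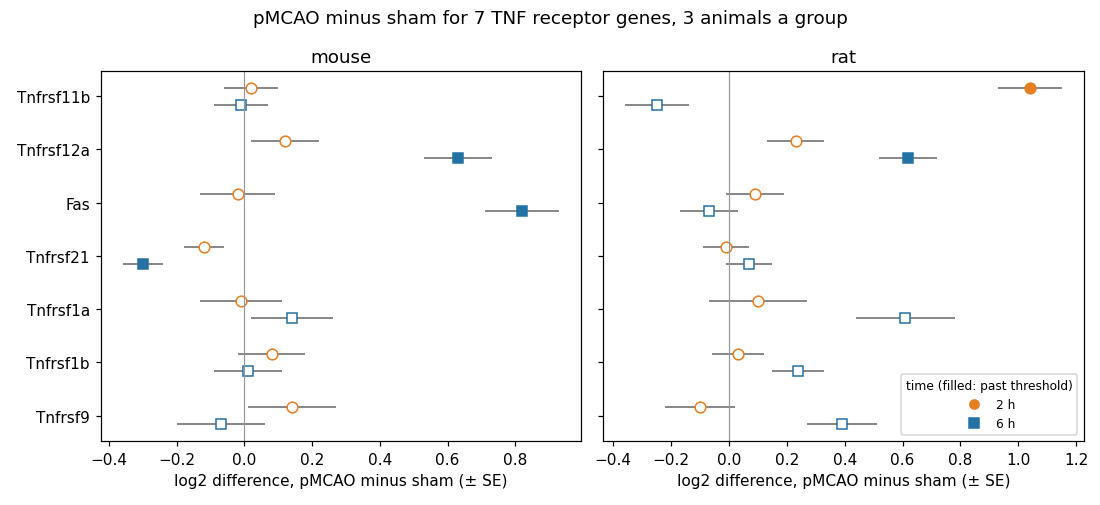
Log2 difference, pMCAO minus sham (horizontal axis, bars show ± SE, 3 animals a group), for the 7 receptor genes in mouse and rat at 2 h (circles) and 6 h (squares), filled where the limma adjusted p passed 0.05. The filled points are Tnfrsf12a, Fas and Tnfrsf21 for mouse at 6 h, Tnfrsf11b for rat at 2 h and Tnfrsf12a for rat at 6 h.

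Counted over the 7 genes, 0 passed in the mouse at 2 h in limma, where 0.298% of all mouse genes passed, 0.149% as higher and 0.149% as lower. At an unadjusted limma p under 0.05 there were 0 of the 7. At 6 h in the mouse, 2 passed as higher and 1 as lower, where 7.43% of all genes passed, 3.21% as higher and 4.23% as lower. Among rats at 2 h, 1 passed as higher and 0 as lower, where 0.0661% of all genes passed, 0.033% as higher and 0.033% as lower. Among rats at 6 h, 1 passed as higher and 0 as lower, where 6.47% of all genes passed, 2.85% as higher and 3.62% as lower. The genes were chosen on these comparisons, so nothing is read from these shares.

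Counted by overlap alone, the mouse at 2 h had 1 gene of 7 with all pMCAO arrays below sham and 0 above, where 8.39% and 6.24% of all genes lay so. The mouse at 6 h had 2 genes above and 1 below, where 10.7% and 14.6% of all genes did. The rat at 2 h had 1 above and 0 below, where 5.54% and 7.57% did, and the rat at 6 h had 3 above and 1 below, where 9.73% and 14.8% did. The median log2 difference over the 7 genes was 0.02 at 2 h and 0.01 at 6 h for mouse, beside -0.01 and -0.02 over all genes. For rat it was 0.09 at 2 h and 0.24 at 6 h, beside -0.00 and -0.02 over all genes.

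Levels at 2 h and 6 h were set side by side after each array was centred on its own median, since as deposited the median gene read 0.81 lower in rat sham arrays and 0.16 lower in mouse sham arrays at 6 h. On this scale rat Tnfrsf11b averaged 1.99 ± 0.16 after pMCAO and 0.96 ± 0.23 in sham at 2 h, and 1.85 ± 0.13 after pMCAO and 2.10 ± 0.13 in sham at 6 h (SD, n = 3 each). Ranked by level, the 2 h sham arrays lay apart below the other 3 groups, which overlapped with their neighbours. Centred Tnfrsf11b thus read 1.14 higher in 6 h sham than in 2 h sham, where 95% of all genes lay below 0.43, and 0.14 lower in 6 h pMCAO than in 2 h pMCAO. As deposited, Tnfrsf11b read 0.27 higher in 6 h sham with overlap, and quantile normalization gave 1.11.

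Mouse Fas had another order. Centred, it averaged 0.23 ± 0.01 after pMCAO and 0.26 ± 0.06 in sham at 2 h, and 0.27 ± 0.10 after pMCAO and -0.53 ± 0.25 in sham at 6 h (SD, n = 3 each). The first 3 of these overlapped with their neighbours in level, and the 6 h sham arrays lay apart below them. The 6 h sham arrays were 0.79 lower than the 2 h sham arrays on the centred scale and 0.91 lower as deposited, where 95% of all genes lay above -0.38 when centred. For both genes, then, a sham group is the group that stands apart on the centred scale. Whether the times differ through the animals or through how their arrays were run and processed cannot be told apart in these files.

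Centred mouse Tnfrsf12a averaged 0.79 ± 0.18 after pMCAO and 0.69 ± 0.05 in sham at 2 h, and 1.12 ± 0.09 after pMCAO and 0.52 ± 0.17 in sham at 6 h (SD, n = 3 each). Here the 6 h pMCAO group lay apart above the rest, which overlapped in turn. Centred rat Tnfrsf12a averaged 0.91 ± 0.12 after pMCAO and 0.70 ± 0.10 in sham at 2 h, and 1.02 ± 0.18 after pMCAO and 0.41 ± 0.05 in sham at 6 h (SD, n = 3 each). Here the 6 h sham group lay apart below the rest. The near-equal differences of the species at 6 h therefore come with different orders of the groups. Centred mouse Tnfrsf21 averaged 3.08 ± 0.05 after pMCAO and 3.22 ± 0.04 in sham at 2 h, and 2.81 ± 0.04 after pMCAO and 3.13 ± 0.09 in sham at 6 h, where the 6 h pMCAO group lay apart below the rest (SD, n = 3 each).

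**Figure D3:**
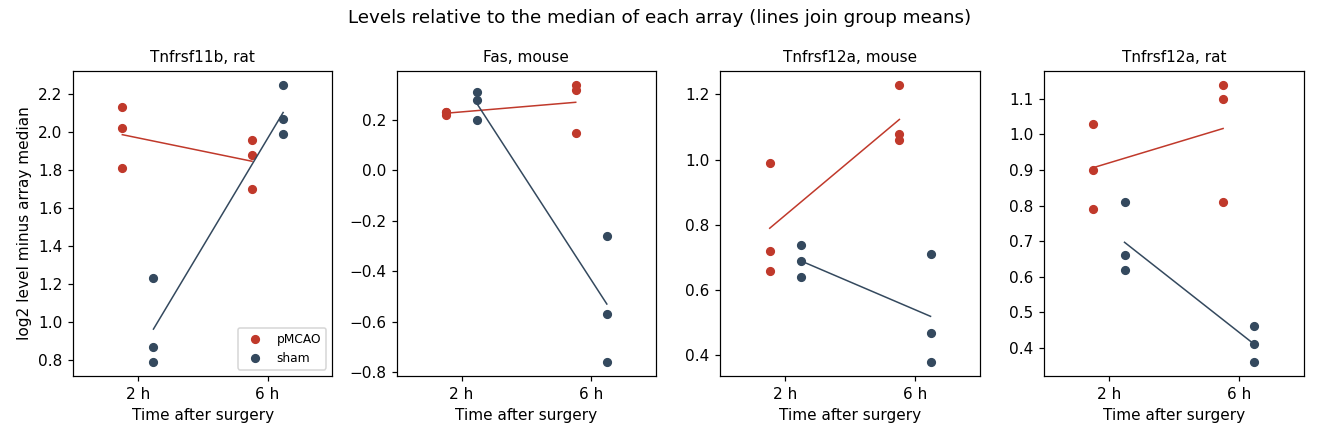
Log2 level minus the array median (vertical axis) of Tnfrsf11b in rat, Fas in mouse and Tnfrsf12a in both species at 2 h and 6 h, with pMCAO in red left of sham in blue and lines between group means. In rat Tnfrsf11b the 2 h sham arrays, averaging 0.96, lie apart below the rest, and in mouse Fas the 6 h sham arrays, averaging -0.53, do.

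The remaining members moved less between the times or moved in both arms. Centred rat Tnfrsf1a read higher at 6 h in both arms, by 0.94 after pMCAO and by 0.43 in sham. Centred rat Fas did so too, by 0.32 after pMCAO and 0.47 in sham, with no overlap in either arm. Centred rat Tnfrsf1b read 0.30 lower at 6 h than at 2 h in sham, without overlap, and 0.07 lower after pMCAO, with overlap. As deposited, rat Tnfrsf1a in sham read 0.44 lower at 6 h, and rat Fas read 0.55 lower after pMCAO and 0.39 lower in sham, so the direction of these 3 values over time turns with the centring. Rat Tnfrsf1b was lower at 6 h in both arms and rat Tnfrsf1a after pMCAO was higher on either scale, by 0.07 with overlap as deposited.

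Pathway genes around the receptors were taken from 6 lists of 91 genes in all, of which 83 were measured in mouse and 78 in rat. They covered the other TNF superfamily receptors, the ligands, the death signalling genes, and the TRAF and ubiquitin genes. They also covered the NF-kB kinases and subunits, listed together with NF-kB regulators, and genes of receptor shedding. In the mouse at 2 h 1 of 83 passed as higher and 0 as lower. In the mouse at 6 h 5 passed as higher and 2 as lower. Of the 78 rat genes 0 passed at 2 h in limma, while 8 had an unadjusted p under 0.05. At 6 h 9 passed as higher and 1 as lower. The shares of all genes that passed as higher were 0.149% at 2 h and 3.21% at 6 h for mouse, and 0.033% and 2.85% for rat. As lower they were 0.149% and 4.23% for mouse, and 0.033% and 3.62% for rat. The median log2 difference over the lists was 0.04 at 2 h and 0.05 at 6 h for mouse, and 0.04 at either time for rat. In the change over time 0 passed in either species in limma, with 9 mouse and 16 rat genes at an unadjusted p under 0.05. The shares above are at the adjusted threshold, and those at an unadjusted p are not given here.

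Among the ligands, the rat at 6 h had 1 of 15 higher and 1 lower, and the mouse had 0 of 16 at either time in limma, with 0 at an unadjusted p under 0.05. The gene that rose was Tnf itself, the inflammatory cytokine that binds the products of Tnfrsf1a and Tnfrsf1b. Rat Tnf read 6.49, 6.13 and 6.82 after pMCAO at 6 h, against 5.84, 5.67 and 5.86 in sham, with no overlap. Its log2 difference was 0.69 ± 0.18 (SE, limma adjusted p = 0.0402). The call on Tnf was lost without pMCAO replicate 1 or 3 or without sham replicate 1, 2 or 3 (limma adjusted p = 0.071 to 0.134), at log2 differences of 0.52 to 0.73. In mice at 6 h Tnf read 5.93, 6.12 and 5.81 after pMCAO and 5.82, 5.69 and 5.83 in sham, which overlapped (limma adjusted p = 0.235).

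Among the other receptors, 1 of 21 passed as higher and 1 as lower in the mouse at 6 h, and 0 of 19 passed in the rat at 6 h in limma, with 3 at an unadjusted p under 0.05. Tnfrsf10b, the mouse receptor for TRAIL and a death receptor, read 5.51, 5.44 and 5.32 after pMCAO, against 4.86, 4.59 and 4.89 in sham. It rose by 0.64 ± 0.11 on the log2 scale (SE, limma adjusted p = 0.00877), and its call held with each array left out. Mouse Tnfrsf10b was among the dimmest 25% of genes, so the run without those genes did not hold it. At 2 h its arrays read 5.14, 5.41 and 5.28 after pMCAO and 4.80, 4.88 and 5.15 in sham, an overlap of 0.01, and it did not pass (limma adjusted p = 0.466). Rat Tnfrsf10b differed by 0.18 ± 0.13 at 6 h (SE, limma adjusted p = 0.474).

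Tnfrsf14, a receptor on lymphocytes and other cells that binds LIGHT and BTLA, read 5.17, 5.16 and 5.03 after pMCAO in mice at 6 h, against 5.42, 5.27 and 5.41 in sham. It fell by 0.25 ± 0.06 on the log2 scale (SE, limma adjusted p = 0.0415). At 2 h it had read 5.38, 5.38 and 5.44 after pMCAO, against 5.25, 5.32 and 5.35 in sham. The call on Tnfrsf14 at 6 h was lost without pMCAO replicate 1, 2 or 3 or sham replicate 1 or 3 (limma adjusted p = 0.054 to 0.128), at -0.27 to -0.20. It was also lost with trend and robust eBayes, array weights, the 6 arrays alone, all clusters or the replicate block. In those runs the limma adjusted p was 0.0737 to 0.155, at -0.25 to -0.23.

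Among the death signalling genes, Map3k5 passed in the rat at 6 h, 1 of 10, and 0 of 9 passed in the mouse at 6 h in limma, with 4 at an unadjusted p under 0.05. Map3k5 encodes ASK1, a kinase upstream of JNK and p38 that TNF receptors can engage. It read 7.40, 7.11 and 7.68 after pMCAO, against 6.87, 7.03 and 6.82 in sham, and rose by 0.49 ± 0.12 on the log2 scale (SE, limma adjusted p = 0.0297). Its call was lost without pMCAO replicate 1 or 3 or sham replicate 1 or 3 (limma adjusted p = 0.0717 to 0.0965), at 0.35 to 0.49.

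Among the TRAF and ubiquitin genes, 1 of 12 passed as higher in the rat at 6 h and 1 of 15 as lower in the mouse at 6 h. Rat Birc3 encodes cIAP2, a ubiquitin ligase of TNF receptor complexes that is itself an NF-kB target. It read 6.17, 5.57 and 6.04 after pMCAO, against 4.70, 4.72 and 5.11 in sham. Rat Birc3 rose by 1.08 ± 0.17 on the log2 scale, 2.12-fold (SE, limma adjusted p = 0.00339). This gene too was among the dimmest 25% of genes in its species. Mouse Xiap, an inhibitor of caspases, read 7.72, 7.60 and 7.66 after pMCAO, against 7.89, 7.82 and 7.97 in sham, and fell by 0.23 ± 0.06 (SE, limma adjusted p = 0.0393). The call on Xiap was lost without pMCAO replicate 2 or 3 or sham replicate 1, 2 or 3 (limma adjusted p = 0.0509 to 0.133), at -0.27 to -0.19.

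The list of NF-kB kinases and subunits, which also holds regulators, had most of the calls. Among them, Nfkbiz and Tnip2 in mouse and Nfkbia and Nfkbiz in rat encode neither a kinase nor a subunit. At 6 h 6 of 18 rat genes and 4 of 17 mouse genes passed, all as higher, and at 2 h 1 of 17 mouse genes passed. The list medians in these comparisons were 0.23, 0.14 and 0.01 on the log2 scale. Rat Rel, which encodes the subunit c-Rel, read 8.07, 7.83 and 7.97 after pMCAO at 6 h, against 6.68, 6.43 and 6.65 in sham, a rise of 1.37 ± 0.13, 2.58-fold (SE, limma adjusted p = 0.000188). Rat Nfkb1, the p105 and p50 subunit gene, read 7.84, 7.64 and 7.97 after pMCAO, against 7.19, 7.16 and 7.15 in sham, a rise of 0.65 ± 0.09 (SE, limma adjusted p = 0.00147). Rat Map3k14, which encodes NIK, the kinase of the non-canonical pathway that receptors such as the one for TWEAK engage, read 6.51, 6.27 and 6.37 after pMCAO, against 5.82, 5.75 and 5.74 in sham. That was a rise of 0.61 ± 0.08 (SE, limma adjusted p = 0.00147).

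The other 3 rat calls, named because they complete the count, were Nfkb2 at 0.61 ± 0.10 (limma adjusted p = 0.00392), the inhibitor gene Nfkbia at 1.17 ± 0.17 (adjusted p = 0.00216) and the nuclear cofactor gene Nfkbiz at 1.16 ± 0.22 (adjusted p = 0.0095), as log2 difference ± SE. In all 9 rat pathway genes that passed as higher at 6 h, pMCAO replicate 2 had the lowest level of the 3 pMCAO arrays. It was also the lowest in 4 of the 7 receptor genes, among them Tnfrsf1a, Tnfrsf12a and Tnfrsf9. That array lay at 10.4 on the first component of the 6 rat arrays at 6 h, between the other pMCAO arrays at 16.6 and 23.5 and the sham arrays at -18.7 to -14.5. In the mouse at 6 h, pMCAO replicate 3 was the lowest pMCAO array in 6 of the 7 receptor genes. It was also the lowest in 3 of the 5 mouse pathway genes that passed as higher there.

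In the mouse at 6 h, Nfkbiz read 6.20, 6.03 and 5.94 after pMCAO, against 5.59, 5.65 and 5.43 in sham, a rise of 0.50 ± 0.09 (SE, limma adjusted p = 0.0103). Mouse Rela, the p65 subunit gene, read 8.16, 8.31 and 8.29 after pMCAO, against 7.92, 7.95 and 8.00 in sham, a rise of 0.30 ± 0.06 (SE, limma adjusted p = 0.0152). Tnip2, which encodes an A20-binding protein, read 6.72, 6.87 and 6.71 after pMCAO, against 6.47, 6.21 and 6.20 in sham, a rise of 0.47 ± 0.10 (SE, limma adjusted p = 0.018). Mouse Rel was the other call, at 0.58 ± 0.14 (SE, limma adjusted p = 0.0354). With the 6 arrays of that time fitted alone, the calls on Nfkbiz (limma adjusted p = 0.0568), Rela (0.0916) and Tnip2 (0.0613) were lost at log2 differences of 0.50, 0.30 and 0.47. The call on Tnip2 was also lost without pMCAO replicate 2 or sham replicate 2 or 3 (limma adjusted p = 0.0581 to 0.0706), at 0.42 to 0.43.

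At 2 h the mouse call was Nfkbiz, which read 6.49, 6.78 and 6.58 after pMCAO, against 6.10, 6.11 and 6.10 in sham. It rose by 0.51 ± 0.09 (SE, limma adjusted p = 0.0446), and the call was lost with any 1 of the 6 arrays left out (limma adjusted p = 0.057 to 0.191), at 0.43 to 0.58. The receptor shedding list held Adam10, Adam17, Rhbdf1, Rhbdf2 and Timp3, which are not all proteases, and Adam10 was not measured in rat. Of this list 0 of 5 passed in the mouse at 6 h and 0 of 4 in the rat in limma. At an unadjusted p under 0.05 there were 2 and 0. Adam17, the main TNF convertase, differed by 0.07 ± 0.06 in mouse (adjusted p = 0.54) and 0.05 ± 0.14 in rat (adjusted p = 0.88) at 6 h in limma, and is named for its role.

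**Figure D4:**
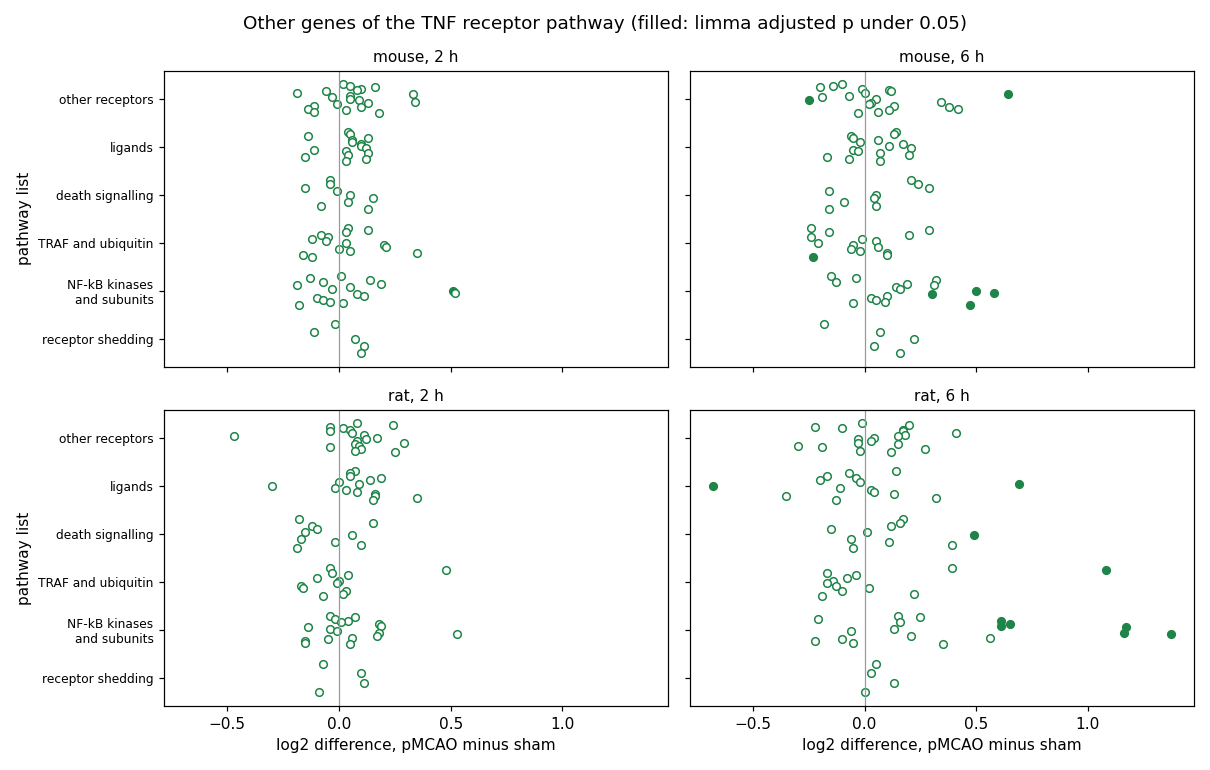
Log2 difference, pMCAO minus sham (horizontal axis), of each measured gene in 6 lists of TNF pathway genes (rows), for mouse above and rat below at 2 h and 6 h, filled where the limma adjusted p was under 0.05. In rat at 6 h the filled points reach 1.37 in the NF-kB kinases and subunits list, where 6 of 18 passed. They reach 1.08 in the TRAF and ubiquitin list and 0.69 among the ligands. The NF-kB list also holds regulators such as Nfkbia and Nfkbiz.

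Likeness between genes was measured as Pearson's r over the 12 arrays of a species after the mean of each time was removed. The differences between pMCAO and sham, on which the members were picked, stay in r. The values are therefore no separate support for those differences. Over the 21 pairs of members r ran from -0.71 to 0.93 in mouse with a median of -0.04, and from -0.31 to 0.81 in rat with a median of 0.17. In mouse Tnfrsf12a and Fas were most alike (0.93), and Tnfrsf21 ran against both (-0.71 with Tnfrsf12a and -0.66 with Fas). In rat Tnfrsf1a went with Tnfrsf12a (0.81) and Tnfrsf9 (0.78), and Tnfrsf12a with Fas was at 0.04.

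Of all genes, those most like mouse Tnfrsf12a were Myo15 (0.97), Stk40 (0.97) and Kdm6b (0.96), and those most like mouse Fas were Sec13 (0.95), Kdm6b (0.95) and Rpl41 (0.95). Mouse Tnfrsf21 was most like Lratd1 (0.98), Btbd6 (0.97) and Arhgap35 (0.95). Rat Tnfrsf11b was most like Chsy3 (0.96), Csmd1 (0.92) and Celf1 (0.91), and rat Tnfrsf12a like Phf13 (0.97), Cep85l (0.96) and Mvd (0.96). Rat Tnfrsf1a was most like Map3k5 (0.98), the ASK1 gene above, then Pdpn (0.97) and Lbh (0.97). For the other members the highest r lay between 0.86 and 0.95: Dpysl3 (0.88) for mouse Tnfrsf11b, Vps54 (0.88) for mouse Tnfrsf1a, Bmp5 (0.90) for mouse Tnfrsf1b, Rian (0.86) for mouse Tnfrsf9, Dennd2c (0.93) for rat Tnfrsf1b, Shc4 (0.95) for rat Tnfrsf9, Ddost (0.93) for rat Tnfrsf21 and Hormad2 (0.91) for rat Fas.

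Markers of cell types also differed between pMCAO and sham, given here as means of log2 levels over each list. In the rat at 2 h, where Tnfrsf11b was higher, 11 neutrophil markers ran from 5.92 to 6.14 after pMCAO, against 5.66 to 5.75 in sham, and 10 meningeal fibroblast markers from 7.07 to 7.11, against 7.17 to 7.25. In the same arrays 9 mural cell markers ran from 7.76 to 7.89, against 7.71 to 7.82, and 10 endothelial markers from 7.26 to 7.50, against 7.35 to 7.44, both with overlap. The 9 T and NK cell markers ran from 5.52 to 5.74, against 5.37 to 5.51, and 9 astrocyte markers from 9.83 to 9.95, against 9.95 to 10.04, where the closest arrays round to the same value. In these 6 lists 0 genes passed in limma, and at an unadjusted p under 0.05 there were 3 neutrophil, 1 fibroblast, 0 mural, 0 endothelial, 4 T and NK cell and 2 astrocyte genes. In the mouse at 2 h, where 0 of the 7 receptor genes passed, 12 neutrophil markers ran from 5.10 to 5.29, against 5.00 to 5.02. Of these 12, 0 passed in limma and 4 had an unadjusted p under 0.05. Neutrophil means lay above sham without overlap in both species at both times. Without detection calls, none of the markers can be called absent.

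In the rat at 6 h, neutrophil markers ran from 5.14 to 5.30 after pMCAO, against 4.73 to 4.88 in sham, with 2 of 11 higher, and 7 monocyte markers from 5.64 to 5.83, against 5.42 to 5.47, with 1 higher. Rat striatal neuron markers ran from 6.90 to 6.96, against 6.79 to 6.83, with 0 of 10 past the threshold in limma and 2 at an unadjusted p under 0.05. Rat microglia and macrophage markers ran from 6.65 to 6.85, against 6.76 to 6.85, with overlap and 1 of 10 higher and 3 lower. Rat endothelial markers ran from 6.44 to 6.75, against 6.64 to 6.88, with overlap and 2 of 10 lower. In the mouse at 6 h, where Fas and Tnfrsf12a were higher and Tnfrsf21 was lower, 11 neuronal markers ran from 10.13 to 10.18 after pMCAO, against 10.22 to 10.24 in sham, with 1 lower. There 8 striatal neuron markers ran from 7.29 to 7.49, against 7.56 to 8.62, with 4 lower, and 11 microglia and macrophage markers from 6.86 to 6.93, against 6.98 to 7.04, with 1 higher and 3 lower. Mouse neutrophil markers at 6 h ran from 5.11 to 5.31, against 5.03 to 5.06, with 1 of 12 higher, and monocyte markers from 5.71 to 5.84, against 5.65 to 5.69, with 0 of 8 past the threshold in limma and 1 at an unadjusted p under 0.05. The part of these shifts in the receptor values was not tested.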

How the data were processed

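The authors deposited log2 expression values per transcript cluster, to 2 decimals, in 1 table per species with 12 arrays each. Tools were oligo and limma per the submitters' processing notes. Background correction, normalization and genome build: not given in the sources used here. Groups came from the sample titles, because the time label says 2 h throughout. RNA integrity was above 7.5 per the labels' protocols. Clusters with a single symbol were used (23521 of 41345 in mouse, 18511 of 36685 in rat), with the highest mean cluster per symbol. Group means were fitted to the 12 arrays of a species with limma 3.58.1 (R 4.3.3, 8 residual degrees of freedom), eBayes and Benjamini-Hochberg adjustment over all genes, two-sided, at 0.05. No level filter was set, so all 7 genes were tested. The script was tested on simulated data. The members, lists, naming rule and alternatives were chosen with earlier results of these data known. The naming rule took all 7 members, up to 3 pathway genes per list and comparison with the smallest adjusted p past the threshold, and the 3 genes most like each member, leaving out symbols of unnamed or predicted genes, olfactory and vomeronasal receptors and small RNAs. The precision is limited by the 3 arrays per group. Any pair of arrays shared equal values at 2.54% of clusters or fewer. Alternatives covered moderation, array weights, normalization, cluster choice, a filter on dim genes, a replicate block and leaving out each array.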

Additional observations from a re-analysis of the deposited data

Results flagged for a closer look

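Rat Tnfrsf11b, the osteoprotegerin gene, had all 3 pMCAO arrays above sham at 2 h and all 3 below sham at 6 h. Its log2 differences were 1.04 ± 0.11 and -0.25 ± 0.11 (SE, n = 3 per group), and the difference at 6 h minus that at 2 h was -1.29. Of all rat genes, 5.54% lay above sham in this way at 2 h and 14.8% below at 6 h. Tnfrsf11b was chosen with its differences known, so this is a description.

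Mouse Tnfrsf14 had all 3 pMCAO arrays above sham at 2 h (0.09 ± 0.06, SE) and all 3 below at 6 h (-0.25 ± 0.06, SE). Of all mouse genes, 6.24% lay above in this way at 2 h and 14.6% below at 6 h. For Tnfrsf14 the 2 h difference did not pass (limma adjusted p = 0.787), and the 6 h call was lost in alternative runs given above. The difference at 6 h minus that at 2 h was -0.34 on the log2 scale and did not pass (limma adjusted p = 0.147).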

How the results depend on the processing

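In each alternative run, the members' differences that had passed the threshold kept their sign. Of the alternatives to a member's value other than leaving out an array, 242 kept direction and side of the threshold, 2 lost the call (mouse Tnfrsf21 at 6 h, -0.30 with the 6 arrays of that time alone and with the replicate block), 2 gained it (rat Tnfrsf1a at 6 h, 0.61 with trend and robust eBayes and without the dimmest 25% of genes) and 6 changed the sign of a difference that had not passed. The number of members past the threshold in the rat at 6 h was 1, and 2 with trend and robust eBayes or without the dimmest genes. Leaving out each array gave 1 to 3 there (3 without pMCAO replicate 2) and 0 to 1 in the rat at 2 h (0 without sham replicate 3).

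The pathway genes past the threshold in the mouse at 2 h numbered 1, and 0 with the 6 arrays alone, quantile normalization, median centring, all clusters or the replicate block, and 0 to 0 with an array left out. In the mouse at 6 h the 7 became 4 with array weights, 1 with the 6 arrays alone, 4 with all clusters and 4 with the replicate block, and 3 to 8 with an array left out (3 without pMCAO replicate 2 or sham replicate 3, 4 without sham replicate 2). For the change over time the 0 in mouse became 1 with trend and robust eBayes or without the dimmest genes. The 0 in rat became 2 with trend and robust eBayes, 2 with array weights, 1 with median centring, 1 with the mean of clusters and 2 without the dimmest genes, and 0 to 3 with an array left out (2 without 2 h pMCAO replicate 2, 3 without 6 h pMCAO replicate 2).

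Over all genes, the 66 in mouse at 2 h became 110 with trend and robust eBayes, 102 with array weights, 23 with the 6 arrays alone, 39 with all clusters and 35 with the replicate block, and 23 to 42 with an array left out. The 1649 in mouse at 6 h became 2574 with trend and robust eBayes, 246 with the 6 arrays alone and 665 with the replicate block, and 616 to 1368. The 12 in rat at 2 h became 28 with trend and robust eBayes, 65 with array weights, 44 with the 6 arrays alone, 4 with all clusters and 2 with the replicate block, and 0 to 16. The 1175 in rat at 6 h became 363 with the 6 arrays alone, and 550 to 1268. The 6 arrays alone leave fewer arrays to the fit, and the cause of the changed counts was not tested for any setting.

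Replicate numbers were not used as pairs in the main fit. Arrays of pMCAO and sham with the same number correlated at -0.12 to 0.33 in their deviations from group means. The highest, 0.33, was replicate 2 of the rat at 2 h, and the next highest was 0.07. With the replicate number as a block, mouse Rela at 6 h had a limma adjusted p of 0.0501 (0.0152 without the block) at a difference of 0.30. The arrays give no signal over background, so dim genes could not be set apart from absent ones.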
